A study of Mus musculus with 8 samples.

Results

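The 53 genes described here are secreted or membrane-bound guidance cues and their receptors: 11 Eph receptors and 8 ephrins, 13 semaphorins with 8 plexins and 2 neuropilins, 3 Slits with 2 Robo receptors, and 2 netrins with 4 netrin receptors. They were listed by name, with earlier results of these data known. Every non-control probe on the array whose gene name is one of the 53 was taken, and this gave 77 probes. Of these genes 51 could be tested, among 27109 genes tested on the whole array. The cells were satellite cells, the stem cells of skeletal muscle, sorted from hindlimb muscle of C57BL/6J mice 3 to 4 months old and cultured overnight. They received a lentivirus that integrates into the genome and expresses either eGFP alone (the control) or Hoxa9-eGFP, and eGFP-positive cells were sorted 5 days later. The eGFP cassette and the viral transduction were thus common to both groups, and the labels name no viral promoter. Hoxa9 belongs to the homeobox transcription factors, which set position along the body axis and the limbs. Each group had 4 one-colour Agilent arrays, numbered 1 to 4. Nothing in the labels ties the 4 to separate animals, so p-values here reflect only how these samples vary, which may be technical.

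Guidance cues were first described in the growing nervous system, where a ligand on one cell or in the matrix turns or stops the moving tip of another that carries the receptor. Ephrins are bound to the membrane and signal to Eph receptor tyrosine kinases by cell contact, semaphorins act on plexins with neuropilins as co-receptors, Slits act on Robo receptors, and netrins on Dcc, neogenin and Unc5 receptors. Most of these receptors act on the cytoskeleton through small GTPases. The same genes are used outside the nervous system, and in muscle they are known for effects on the migration of satellite cells and on the contact between fibre and nerve.

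All levels are log2 values of the processed signal of an array minus that array's 75th percentile, so that 0 is the level of a fairly bright probe. A difference is the mean of the 4 Hoxa9 arrays minus the mean of the 4 eGFP arrays on that scale, with its standard error (SE) and the adjusted p of limma's test over all genes, and a gene passed the test with an adjusted p under 0.05. Probes of different genes bind differently, so levels of single genes are compared between arrays and not with each other. Sums over lists of genes are likewise compared between arrays. The exception is a comparison of probe levels by the length of repeats in the probe sequence. Each array carried 62976 spots, 0 of them saturated, and 69.6% to 77.5% of the spots for genes exceeded the background clearly. Hoxa9 itself was higher by 5.98 (SE 0.24, adjusted p = 1.71e-05) on its brightest probe. Its other kept probe differed by -1.74 (adjusted p over all probes = 0.00027), and the labels do not say which part of the transcript the virus carries. The arrays lay on 3 slides, each with arrays of both groups, and their number limits the precision of every value.

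Of the 51 tested genes 21 (41.2%) passed the test, 11 higher and 10 lower with Hoxa9. Over all 27109 genes 15.2% passed, 7.83% higher and 7.42% lower. The guidance genes were listed with earlier results of these data known, which limits every such comparison with all genes. The changes went both ways: the median difference was 0.01 over the guidance genes and -0.07 over all genes. Among the 26 ligands 5 were higher and 5 lower, and among the 25 tested receptors 6 were higher and 5 lower. At least 2-fold changes that passed the test were found for 17 guidance genes, against 9.16% of all genes. The values of the 4 eGFP arrays and of the 4 Hoxa9 arrays did not overlap in 21 of the 51 genes (41.2%), against 23.6% of all genes, and these were the 21 that passed. Where groups do not overlap, the sign is necessarily the same within every slide and every same-numbered pair. Of the 21, Robo2 and Plxnc1 entered the test through 1 group alone, because their probes were well above background on 4 arrays of that group and on 0 of the other. Among the 46 guidance genes well above background on all 8 arrays, 9 were higher and 9 lower, against 18.1% of all genes that met the same condition. In bulk RNA like this, a change in the share of cells that express a gene and a change in the RNA per cell cannot be told apart.

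**Figure D1:**
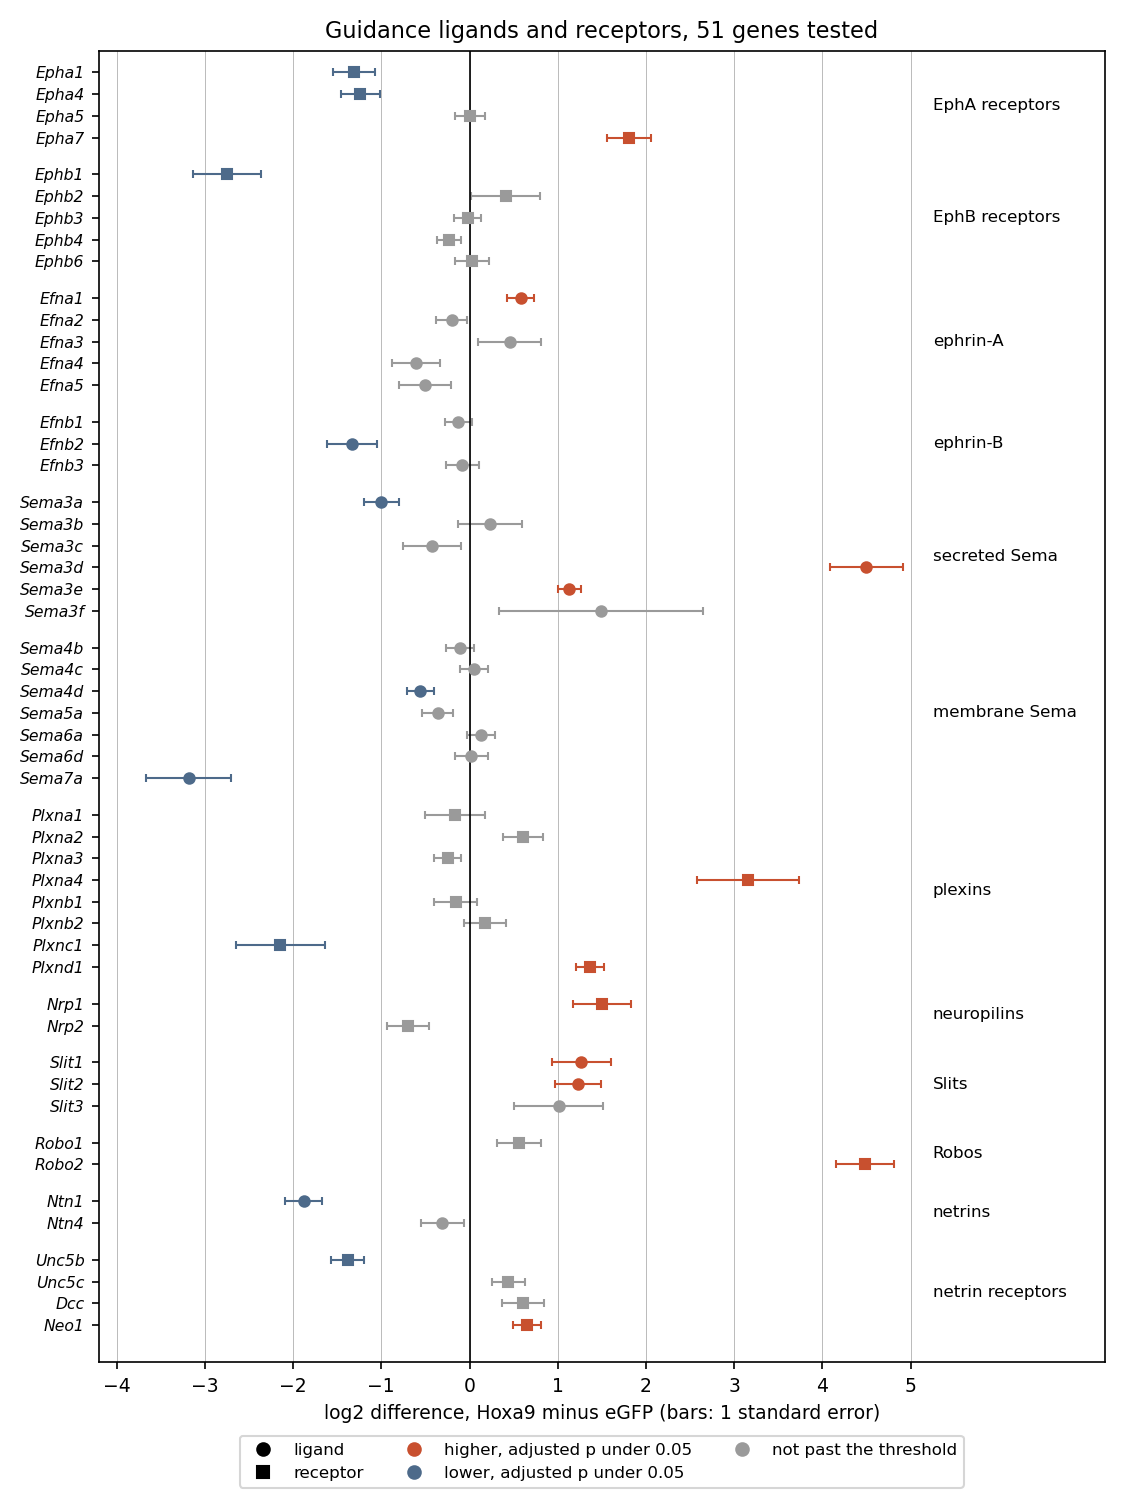
Log2 difference (Hoxa9 minus eGFP, 4 arrays each) of the 51 tested guidance genes, ordered by family, with bars of 1 standard error; circles are ligands, squares are receptors, and colour marks the genes that passed the test. Robo2 and Sema3d stand near 4.5 on the right, Sema7a and Ephb1 lie farthest to the left, and the 5 Slit and Robo genes plotted lie above 0, 2 of them (Slit3 and Robo1) without passing the test.

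Eph receptors and ephrins were examined first. Of 9 tested Eph receptors 3 were lower with Hoxa9 (Epha1, Epha4 and Ephb1) and 1 was higher (Epha7). A further receptor, Epha5, was higher on 2 of its 3 probes, 1 of which was kept through the Hoxa9 arrays alone. Of 8 ephrins 1 was higher (Efna1) and 1 lower (Efnb2).

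Ephb1, a receptor for the transmembrane ephrin-B ligands, fell most in this family. On the eGFP arrays its level was -1.25, -1.45, -0.11 and 0.03, and on the Hoxa9 arrays it was -3.73, -3.82, -3.16 and -3.08, a difference of -2.75 (SE 0.38, adjusted p = 0.00201). Every Hoxa9 array lay below every eGFP array, and in both groups replicates 1 and 2 read lower than replicates 3 and 4. The difference was -1.73, -3.66 and -3.19 within the slides, which set unlike replicate numbers against each other. In the same-numbered pairs the difference was -2.48, -2.36, -3.05 and -3.11. With another background correction (normexp) it was -1.84 and still passed.

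Epha1 and Epha4 are receptors for the lipid-anchored ephrin-A ligands, and Epha4 also binds some ephrin-B ligands. Epha1 read 0.24, 0.06, -0.54 and 0.26 on the eGFP arrays and -1.39, -1.10, -1.03 and -1.71 with Hoxa9 (difference -1.31, SE 0.24, adjusted p = 0.00707). The values for Epha4 were -1.09, -1.06, -1.86 and -1.78 against -2.61, -2.59, -2.80 and -2.72 (difference -1.24, SE 0.22, adjusted p = 0.00657). Both were a little over 2-fold lower, and the Hoxa9 arrays of Epha4 lay closer together than its eGFP arrays.

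Epha7, another ephrin-A receptor, went the opposite way. It read -1.96, -2.67, -2.81 and -2.81 without and -0.35, -0.72, -0.82 and -1.14 with Hoxa9, a 3.5-fold rise (difference 1.81, SE 0.25, adjusted p = 0.00195). The groups were apart although eGFP replicate 1 lay above the other eGFP arrays. A further kept probe of Epha7 gave a difference of 2.22 (SE 0.23, adjusted p over all probes = 0.000669). Its remaining probe was too dim to be kept, well above background on 0 eGFP arrays and 1 Hoxa9 array.

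For Epha5 the result depended on the probe. The probe with the highest mean, which stands for the gene, read 4.50, 4.11, 4.27 and 3.98 on the eGFP arrays and 4.46, 4.09, 4.00 and 4.34 with Hoxa9 (difference 0.005, SE 0.173, adjusted p = 0.988). The other 2 kept probes both showed a rise. One read -3.18, -3.49, -3.12 and -3.41 against -1.54, -1.27, -1.46 and -1.69, a difference of 1.81 (SE 0.16, adjusted p over all probes = 0.000287). The remaining one was well above background on 0 eGFP arrays (-7.58, -7.13, -7.77 and -7.11) and on all 4 Hoxa9 arrays (-2.78, -2.06, -2.76 and -3.01). This probe was thus kept only through the group in which it was high, which limits what its test can show. It was 12.7-fold higher than a floor set for the eGFP arrays (adjusted p over all probes = 5.1e-05). That floor is the lowest signal well above background on each array of the dim group, or the probe's own signal where that was higher. Some brighter probes were not well above background, so a fold against this floor can be too large and is no minimum.

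The 3 Epha5 probes are shown because they differ in sequence as well as in result. The stretches lie on the minus strand of mm9, the genome build of the probe positions in the files, at chr5:84487352-84487381 for the probe with the highest mean, chr5:84483867-84483896 for the probe with a difference of 1.81 and chr5:84494916-84494945 for the probe near background on the eGFP arrays. No annotation of that build was used, so no exon is named. Each is 30 bases of a 60-base probe, 5′ to 3′, and capitals mark a run in which a unit of 1 to 3 bases repeats.
Epha5, probe A_55_P2062911: gaaatTGTGTGTGTGTGTGTGTGTGcgtgc
Epha5, probe A_55_P2100425: gttcccatctgcatttgtttgtgctttcag
Epha5, probe A_55_P2062921: gtaccatttattacctataaatatcatagt
The probe with the highest mean holds a TG repeat of 20 bases. The longest such run was 5 bases in the probe with a difference of 1.81 and 6 bases in the other.

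The remaining Eph receptors did not pass the test: Ephb2 differed by 0.41 (SE 0.39), Ephb3 by -0.02 (SE 0.15), Ephb4 by -0.23 (SE 0.14) and Ephb6, which lacks kinase activity, by 0.03 (SE 0.19). Their adjusted p ran from 0.320 for Ephb4 to 0.949 for Ephb3. Epha2 was left out of the fit because its spot on eGFP replicate 1 was marked as faulty. On the other 7 arrays, a comparison added after the data were seen, it differed by -0.56 (SE 0.21, adjusted p = 0.129). Epha3 was too dim to be tested, with its probe well above background on 0 eGFP arrays and on 3 Hoxa9 arrays.

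Among the ligands, Efnb2, a transmembrane ephrin that binds EphB receptors and Epha4, was 2.52-fold lower. It read 2.76, 2.92, 2.40 and 2.44 on the eGFP arrays and 1.54, 1.87, 1.27 and 0.53 with Hoxa9 (difference -1.33, SE 0.29, adjusted p = 0.0162). Its groups did not overlap, though the Hoxa9 arrays were more spread. The call was lost without eGFP replicate 2 (adjusted p = 0.0526), and a dimmer probe of Efnb2 gave -0.88 (SE 0.39) and did not pass.

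Efna1, a lipid-anchored ligand of EphA receptors, read 0.42, 0.61, 0.67 and 0.70 without and 1.13, 1.45, 0.92 and 1.21 with Hoxa9, a 1.49-fold rise (difference 0.58, SE 0.15, adjusted p = 0.0392). The groups were apart, but the call was among the weakest. It was lost when the replicate number entered the fit as a block (adjusted p = 0.0628), with the slide as a block (adjusted p = 0.112) and on leaving out any array but Hoxa9 replicate 3. The other 6 ephrins did not pass: Efna2 differed by -0.20, Efna3 by 0.46, Efna4 by -0.60, Efna5 by -0.50, Efnb1 by -0.13 and Efnb3 by -0.08, with adjusted p from 0.191 to 0.808.

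Among the ligands tested, the largest rise (Sema3d) and the largest fall (Sema7a) were those of semaphorins. Of 13 semaphorins 2 were higher (Sema3d and Sema3e) and 3 lower (Sema3a, Sema4d and Sema7a). Of the 10 plexins and neuropilins 3 were higher (Plxna4, Plxnd1 and Nrp1) and 1 was lower (Plxnc1).

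Sema3d, a secreted semaphorin, was 22.6-fold higher with Hoxa9. On the eGFP arrays it read -4.39, -3.94, -2.81 and -2.51, and on the Hoxa9 arrays 0.84, 1.29, 0.89 and 1.32 (difference 4.50, SE 0.41, adjusted p = 0.000301). The Hoxa9 arrays agreed closely and the eGFP arrays did not, with replicates 1 and 2 below replicates 3 and 4. Within the slides the difference was 5.48, 3.88 and 3.40, and with normexp it was 3.43. In the same-numbered pairs it was 5.23, 5.22, 3.70 and 3.83. Its probe lies at mm9 chr5:12586981-12587040, on the plus strand.

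The other secreted semaphorins that passed changed less. Sema3e, a ligand that can bind Plxnd1 directly, read 0.46, 0.17, 0.12 and 0.26 on the eGFP arrays and 1.35, 1.33, 1.40 and 1.45 on the Hoxa9 arrays, 2.19-fold higher (difference 1.13, SE 0.13, adjusted p = 0.000896). Its spread was small in both groups. Sema3a, which acts through Nrp1 and A-type plexins and is made by satellite cells, read 0.03, -0.14, 0.13 and 0.66 without and -0.97, -0.59, -0.92 and -0.84 with Hoxa9 (difference -1.0, SE 0.20, adjusted p = 0.0111). A further probe of Sema3a gave -1.10 (SE 0.28) and also passed.

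Sema7a, a semaphorin anchored to the membrane by a lipid and a ligand of Plxnc1 and of integrins, was 9.08-fold lower. It read 6.36, 6.09, 4.86 and 4.74 on the eGFP arrays and 3.02, 2.88, 1.57 and 1.86 on the Hoxa9 arrays (difference -3.18, SE 0.48, adjusted p = 0.00312). The lowest eGFP array stood well above the highest Hoxa9 array, and in both groups replicates 1 and 2 read higher than replicates 3 and 4. The difference was -4.37, -1.91 and -3.17 within the slides, which set unlike replicate numbers against each other. In the same-numbered pairs it was closer, at -3.34, -3.21, -3.29 and -2.89.

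Sema4d, a membrane semaphorin and ligand of Plxnb1, read 0.41, 0.34, 0.68 and 0.59 against -0.30, -0.10, 0.14 and 0.05 with Hoxa9 (difference -0.56, SE 0.15, adjusted p = 0.0442). The groups did not overlap, yet the call was lost with the slide as a block (adjusted p = 0.0970) and on leaving out any 1 of the 8 arrays (adjusted p 0.0590 to 0.117). The other 8 semaphorins did not pass the test. Sema3b differed by 0.23, Sema3c by -0.42, Sema4b by -0.11, Sema4c by 0.05, Sema5a by -0.36, Sema6a by 0.13 and Sema6d by 0.02, with SE of 0.16 to 0.37. Sema3c was lower past the threshold with the slide as a block alone (difference -0.68, adjusted p = 0.0443). Sema3f differed by 1.49 with an SE of 1.16: eGFP replicate 1 read -7.46, and the other 7 arrays read between -2.49 and -1.54.

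Among the receptors, Plxnd1 rose 2.57-fold with close agreement of the arrays. It read 1.58, 1.60, 1.99 and 2.07 without and 3.19, 3.18, 3.21 and 3.11 with Hoxa9 (difference 1.36, SE 0.16, adjusted p = 0.000869). A further probe gave 1.05 (SE 0.17) and passed as well. Plxnd1 and Sema3e, a receptor and its ligand, were thus both higher, each with groups that did not overlap. Ligands and receptors that passed did not all move together. Sema3a was lower while Nrp1 and Plxna4 were higher, and Ntn1 was lower while Neo1 was higher.

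Plxna4, an A-type plexin that works with neuropilins in Sema3 signalling, read -3.95, -5.75, -4.11 and -4.83 on the eGFP arrays, well above background on 3 of them, and -2.26, -2.27, -1.43 and -0.05 with Hoxa9 (difference 3.16, SE 0.58, adjusted p = 0.00754). The Hoxa9 arrays were spread over more than 2 log2 units and still lay above every eGFP array. Within the slides the difference was 4.80, 1.85 and 3.40, and with normexp it was 1.60. In the same-numbered pairs it was 1.68, 3.48, 2.69 and 4.78. The other Plxna4 probe was too dim to be kept, well above background on 0 eGFP and 0 Hoxa9 arrays (difference 0.17). The rise of Plxna4 is thus that of 1 probe. Nrp1, the co-receptor for Sema3a and for a vascular growth factor, was 2.83-fold higher: it read -1.79, -1.94, -2.59 and -3.21 against -0.48, -0.84, -1.18 and -1.01 (difference 1.5, SE 0.33, adjusted p = 0.0161).

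Plxnc1, the plexin that binds Sema7a, was lower, as was that ligand. It read -3.0, -2.83, -4.76 and -4.61 on the eGFP arrays and -5.83, -5.82, -6.66 and -5.46 with Hoxa9 (difference -2.14, SE 0.50, adjusted p = 0.0224). With Hoxa9 it was not well above background on any array. The fold against the floor of the Hoxa9 arrays was 4.33, close to the measured fold of 4.42. Its call was lost without eGFP replicate 1 or 2 or without Hoxa9 replicate 1 or 3 (adjusted p 0.0527 to 0.0596), and the difference was -0.54 with normexp, where it passed.

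The other 6 of these receptors did not pass the test. Plxna1 differed by -0.16, Plxna2 by 0.61, Plxna3 by -0.245, Plxnb1 by -0.16 and Plxnb2 by 0.18. Nrp2, the neuropilin favoured by Sema3c and Sema3f, was lower by 0.695 (SE 0.24, adjusted p = 0.0949), and its values overlapped between the groups. A dimmer probe of Nrp2 gave -0.75 (SE 0.18, adjusted p over all probes = 0.0293), and Nrp2 passed when its probes were averaged (adjusted p = 0.0418) or with normexp (adjusted p = 0.0406).

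**Figure D2:**
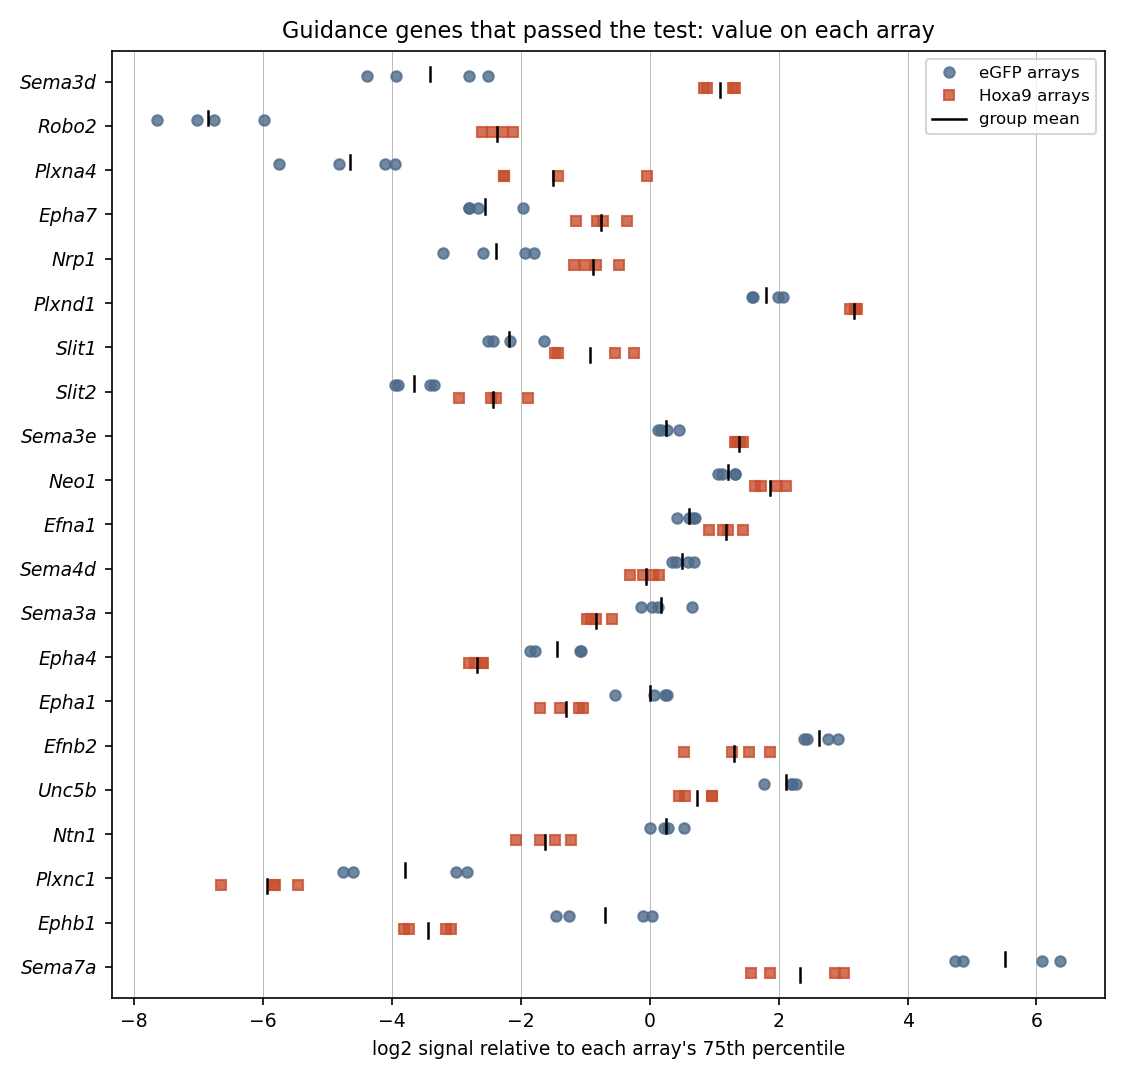
Level of the 21 guidance genes that passed the test on each of the 8 arrays, as log2 signal relative to the array's 75th percentile; blue circles are the 4 eGFP arrays, red squares the 4 Hoxa9 arrays, and black ticks the group means. The groups do not overlap in any of the 21 genes, and the eGFP arrays of Sema3d, Ephb1, Plxnc1 and Sema7a fall into 2 pairs.

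Of the 3 Slits and 2 Robo receptors, Slit1, Slit2 and Robo2 were higher, and 0 were lower. Slit3 and Robo1 had differences above 0 and did not pass. The other Robo receptors, Robo3 and Robo4, are not among the 53 genes and had differences of -0.47 (adjusted p = 0.0968) and -0.54 (adjusted p = 0.342), which did not pass either. Robo2, a receptor for Slits, rose from signals near background: its probe was well above background on 0 of 4 eGFP arrays and on all 4 Hoxa9 arrays. It read -6.76, -5.98, -7.02 and -7.65 without and -2.61, -2.28, -2.13 and -2.45 with Hoxa9 (difference 4.48, SE 0.33, adjusted p = 0.00011). Against the floor of the eGFP arrays, as used for Epha5, it was 14.7-fold higher. The 4 Hoxa9 arrays lay close together and more than 3 log2 units above the highest eGFP array. A further kept probe was 9.92-fold higher against that floor (difference 4.77, SE 0.23, adjusted p over all probes = 4.2e-05). A probe too dim to be kept exceeded background clearly on 3 Hoxa9 arrays and 0 eGFP arrays. The difference of the brightest probe was 3.92, 4.57 and 5.53 within the slides and 4.15, 3.69, 4.89 and 5.20 in the same-numbered pairs. With normexp, which lifts the lowest signals, it was 1.36 and still passed (adjusted p = 8.5e-05), so the size of this rise depends on how the background is treated.

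The ligands Slit1 and Slit2 were each a little over 2-fold higher. Slit1 read -2.51, -2.44, -2.17 and -1.64 on the eGFP arrays and -1.47, -1.42, -0.54 and -0.24 with Hoxa9 (difference 1.27, SE 0.33, adjusted p = 0.0361). The values for Slit2 were -3.91, -3.95, -3.35 and -3.41 against -2.46, -1.89, -2.39 and -2.96 (difference 1.23, SE 0.26, adjusted p = 0.0140). For Slit1 the gap between the groups was narrow, and its call was lost without eGFP replicate 1, 2 or 3 or without Hoxa9 replicate 3 or 4 (adjusted p 0.0778 to 0.101).

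Slit3 differed by 1.01 (SE 0.51, adjusted p = 0.243). Hoxa9 replicate 1 read -5.51, below all the eGFP arrays, and without it the difference was 1.53 and passed (adjusted p = 0.0162). Robo1 differed by 0.56 (SE 0.25, adjusted p = 0.193), and a dimmer probe by 0.85 (SE 0.28).

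Of the netrins and their receptors, Ntn1 and Unc5b were lower and Neo1 was higher. Ntn1, the secreted ligand, read 0.53, 0.22, 0.29 and 0.00 on the eGFP arrays and -1.47, -1.23, -1.70 and -2.08 with Hoxa9, 3.68-fold lower (difference -1.88, SE 0.21, adjusted p = 0.000773). A further probe gave -1.77 (SE 0.32) and passed. Within the slides the difference was -2.45, -1.64 and -1.70, and in the same-numbered pairs -2.0, -1.44, -2.0 and -2.07. Unc5b, a netrin receptor of the repelling kind, read 2.19, 1.77, 2.27 and 2.21 against 0.46, 0.96, 0.96 and 0.54, 2.61-fold lower (difference -1.38, SE 0.19, adjusted p = 0.00183). For both genes the lowest eGFP array was clearly above the highest Hoxa9 array.

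Neo1 encodes neogenin, a receptor for netrins and for repulsive guidance molecules that is related to Dcc. It read 1.12, 1.06, 1.33 and 1.33 without and 1.98, 2.11, 1.63 and 1.73 with Hoxa9, 1.57-fold higher (difference 0.65, SE 0.16, adjusted p = 0.0270). The groups were apart, but the call was lost when the replicate number was a block (adjusted p = 0.0731), with the slide as a block (adjusted p = 0.0676) and without replicate 1 or 2 of either group. Ntn4, a netrin of the basement membrane, differed by -0.31 (SE 0.24) and Unc5c by 0.44 (SE 0.19), and neither passed. Dcc, the receptor that gives attraction to netrin, differed by 0.61 (SE 0.235, adjusted p = 0.134) on a probe with a repeat of 51 bases that the files place on chromosome 7, while the gene's other 2 probes lie on chromosome 18 and were too dim to be kept. The value given for Dcc is thus that of this 1 probe.

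Several of these genes have more than 1 probe, and 17 tested genes have more than 1 that was kept. Of the 53 genes 33 have a single probe. Among these are Epha1, Epha4, Ephb1, Efna1, Sema3d, Sema3e, Sema4d, Sema7a, Nrp1, Slit1, Slit2, Unc5b and Neo1, whose calls thus rest on 1 probe. For Epha7, Ntn1, Plxnd1 and Sema3a every kept probe passed in the same direction among all probes, of which 13.5% passed. Both kept probes of Robo2 passed too, but each was kept through the Hoxa9 arrays alone. Epha5 and Nrp2 passed on a probe other than the one that stands for the gene. Of the Epha5 probes that passed, 1 was likewise kept through the Hoxa9 arrays alone. Signs differed between the kept probes of Efna3, Sema6a and Sema6d, and none of those probes passed. The second kept probe of Plxna2 is placed on chromosome 14, whereas the gene is on chromosome 1, and it did not pass.

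**Figure D3:**
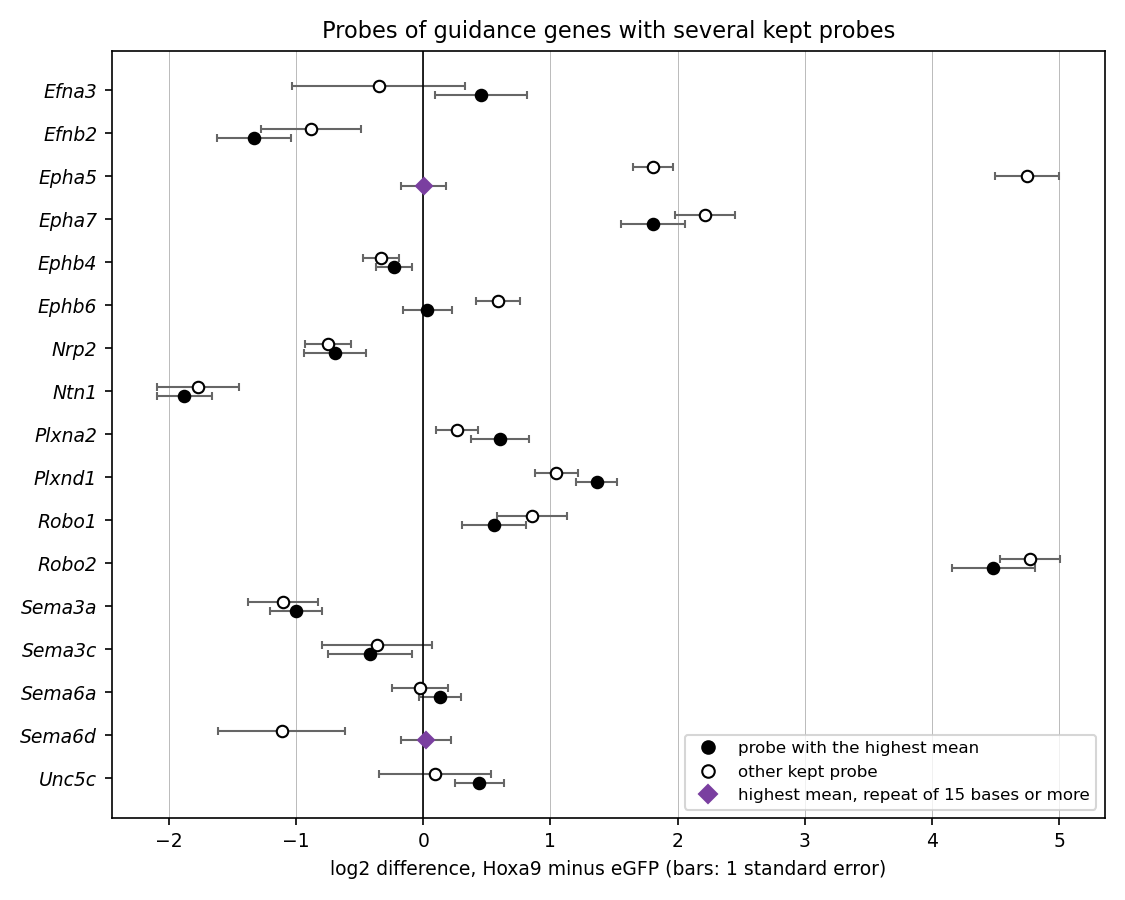
Log2 difference (Hoxa9 minus eGFP) of every kept probe of the 17 guidance genes with several, with bars of 1 standard error; filled circles are the probe with the highest mean, open circles the others, and diamonds a probe with the highest mean that holds a repeat of 15 bases or more. The diamonds of Epha5 and Sema6d lie at 0, while the other probes of Epha5 lie at 1.81 and 4.75 and that of Sema6d at -1.11.

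Epha5 was not alone in being represented by a probe with a long repeat, so the repeats of all probes were counted. The probes of Ephb3, Sema4c and Sema6d that stand for those genes are shown because their repeats are as long or longer. Capitals again mark the repeat, and 30 bases of each probe are given, at mm9 chr16:21223187-21223216 (plus strand) for Ephb3, chr1:36606028-36606057 (minus strand) for Sema4c and chr2:124491639-124491668 (plus strand) for Sema6d.
Ephb3, probe A_55_P2054332: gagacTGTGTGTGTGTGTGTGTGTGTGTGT
Sema4c, probe A_55_P1953866: aaTGTGTGTGTGTGTGTGTGTGTGTtgtaa
Sema6d, probe A_55_P2125351: agaggggcgaGTGTGTGTGTGTGTGTGTGT
The whole repeat is 33 bases long in the Ephb3 probe, 23 in that of Sema4c and 20 in that of Sema6d. Their differences were -0.02, 0.05 and 0.02. A dimmer Sema6d probe with no long repeat gave -1.11 (SE 0.50) and did not pass.

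Over all 40771 kept probes of the array, those with longer repeats were brighter and passed less often. Probes whose longest repeat was up to 9 bases numbered 39847, had a median level of -1.77 and passed in 13.6%. The 159 probes with a repeat of 20 to 60 bases had a median level of 5.81, and limma called 0 of them. Of these 31 (19.5%) had an unadjusted limma p under 0.05, against 26.2% of the probes with repeats up to 9 bases. The median absolute difference was 0.1 for the former and 0.38 for the latter. When probes with a repeat of 15 bases or more were left out, a choice made after the data were seen, 48 guidance genes could be tested. All 21 calls were kept, and Epha5 was added as higher (difference 1.81, adjusted p = 0.000211). Dcc, Ephb3 and Sema4c then had no kept probe.

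**Figure D4:**
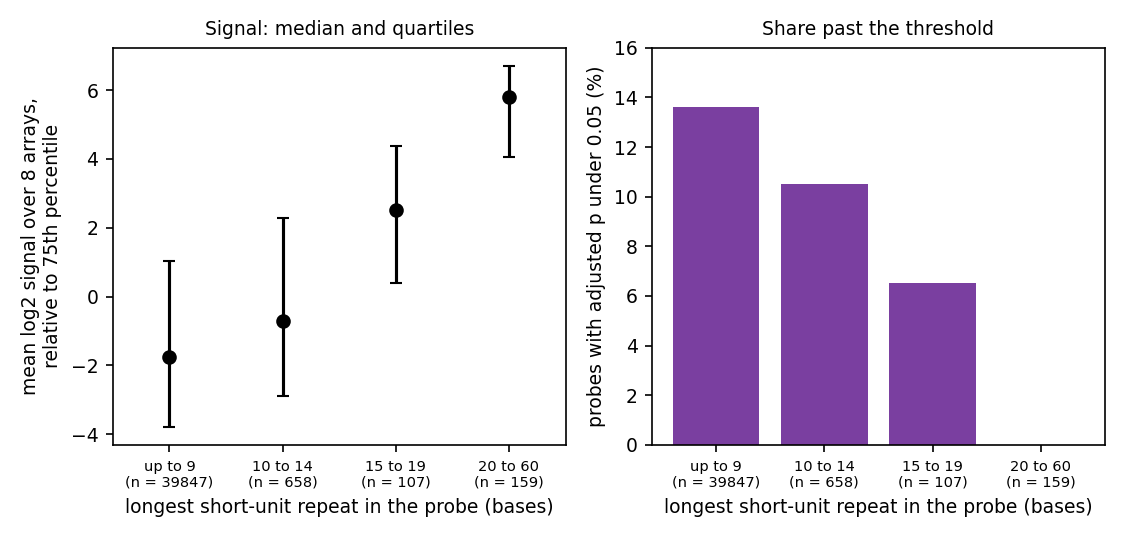
Left, median and quartiles of the mean log2 signal over 8 arrays, relative to the 75th percentile, for all kept probes grouped by the length of their longest run of a repeated unit of 1 to 3 bases; right, the share of those probes with an adjusted p under 0.05, in percent. The median rises from -1.77 to 5.81 and the share falls from 13.6% to 0 from the shortest to the longest repeats.

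Promoters were searched for short motifs of Hox proteins and their partners, since Hoxa9 binds DNA together with Pbx and Meis proteins. RefSeq windows of 300 bases (250 before and 50 after the start, GRCm38.p6) were found for 44 of the 53 genes. Only the 250 bases before the start were searched. On both strands, TGATTTA, a Hox and Pbx motif, was found in 1 of the 44 (2.27%), Ephb1, against 3.07% of the 27025 genes with a window. TTTANGAC, a motif of posterior Hox proteins, was found in 0 of 44 against 2.87%, and TGACAG, a Meis motif, in 7 (15.9%) against 18% of the genes. The shares were thus no higher in the guidance genes. The 7 genes with TGACAG were Efna3, Efnb2, Ntn4, Plxna2, Robo2, Sema4d and Sema7a, of which Robo2 was higher, Efnb2, Sema4d and Sema7a were lower, and the other 3 did not pass.

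The 250 bases before the start are shown for Ephb1, the only gene with the Hox and Pbx motif, and for Robo2 and Sema7a, the genes of opposite direction with the largest differences among those with the Meis motif. They lie at chr9:102354694-102354943 (minus strand), chr16:75092771-75093020 (minus strand) and chr9:57939862-57940111 (plus strand) of GRCm38.p6, are written 5′ to 3′ on the strand of the gene, and have the motif, or its reverse complement, in capitals.
Ephb1: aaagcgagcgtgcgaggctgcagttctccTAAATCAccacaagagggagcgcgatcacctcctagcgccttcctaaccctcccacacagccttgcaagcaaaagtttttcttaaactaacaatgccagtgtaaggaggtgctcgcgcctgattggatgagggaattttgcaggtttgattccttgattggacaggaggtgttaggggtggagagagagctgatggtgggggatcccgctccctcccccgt
Robo2: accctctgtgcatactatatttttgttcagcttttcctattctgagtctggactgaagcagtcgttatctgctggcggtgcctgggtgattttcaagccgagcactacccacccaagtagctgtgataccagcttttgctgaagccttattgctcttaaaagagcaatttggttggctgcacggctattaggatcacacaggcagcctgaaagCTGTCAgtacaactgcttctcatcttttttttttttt
Sema7a: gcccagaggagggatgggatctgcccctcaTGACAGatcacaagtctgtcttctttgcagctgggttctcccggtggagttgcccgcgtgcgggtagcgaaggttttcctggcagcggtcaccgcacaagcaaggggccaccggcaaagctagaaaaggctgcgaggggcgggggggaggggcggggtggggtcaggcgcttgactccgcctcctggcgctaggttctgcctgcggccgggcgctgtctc
A match is a description of these letters and does not show that a protein binds there.

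Other lists place the guidance genes among the rest of the pathway. Of 31 other guidance ligands and receptors 25 were measured, and 3 were higher and 3 lower (24.0%, against 15.2% of all genes), with a median difference of -0.32. Ntng1, 1 of the 3 higher genes, was well above background on 0 eGFP and 4 Hoxa9 arrays and so entered the test through the group in which it was high. Ntn5, a netrin, was higher by 1.52 (SE 0.14, adjusted p = 0.000362). Flrt1, a membrane protein of a family that binds Unc5 receptors, had a difference of -1.46 (SE 0.25, adjusted p = 0.0055). Sema6b, a transmembrane semaphorin, differed by -1.24 (SE 0.21, adjusted p = 0.00556), and Nrcam, an adhesion molecule that associates with neuropilins, by -1.97 (SE 0.36, adjusted p = 0.00746).

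Of 50 genes of guidance signalling inside the cell all 50 were measured, with 10 higher and 5 lower (30%) and a median difference of 0.04. Grip1, a scaffold protein that binds ephrin-B ligands, read -1.55, -1.17, -1.89 and -1.56 on the eGFP arrays and 2.34, 2.31, 2.13 and 1.78 with Hoxa9 (difference 3.68, SE 0.20, adjusted p = 4.1e-05). Ngef, an exchange factor that acts after EphA receptors, read 0.28, 0.35, 0.45 and 0.66 against -2.63, -2.45, -2.66 and -3.0 (difference -3.12, SE 0.16, adjusted p = 4.1e-05). These opposite changes had groups far apart and a small spread. Nck2, an adaptor that binds phosphorylated ephrin-B, was higher by 1.89 (SE 0.18, adjusted p = 0.000386), and Fyn, a kinase of the Src family that acts after Eph receptors and Plxna proteins, was higher by 1.46 (SE 0.17, adjusted p = 0.00101).

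The labelled cell type was checked against its markers. Of 12 satellite cell and myoblast markers 11 were measured, each well above background on all 8 arrays, with Pax7 at 2.26 to 2.82 on the eGFP arrays and 0.92 to 1.63 with Hoxa9. Of these Pax7, Myf5, Itga7, Cdh15 and Vcam1 were lower and Ncam1 was higher, and their summed signal, in units of each array's 75th percentile, was 287 to 386 on the eGFP arrays and 231 to 268 on the Hoxa9 arrays. Being well above background did not set this list apart from those of other cell types. On all 4 eGFP arrays it held for 7 of 7 measured Schwann and glial markers and 10 of 10 fibroblast markers. It also held there for 6 of 7 immune, 7 of 8 smooth muscle and 4 of 7 endothelial markers. Schwann and glial markers (7 of 10 measured) summed to 3.40 to 5.28 against 2.10 to 2.29, with Ngfr lower by 1.99, and S100b, Foxd3 and Cdh19 had no kept probe. The sum for smooth muscle and pericyte markers (8 of 10) was 98.2 to 161 against 45.7 to 97.2, with Acta2 lower by 1.32 and Cnn1 higher by 2.57. Such sums follow the brightest probes of a list, here that of Acta2. The mean log2 level of this list overlapped, at -0.61 to 0.47 on the eGFP arrays and -0.44 to 0.77 with Hoxa9. Of its genes 4 had differences above 0 and 4 below. The sums overlapped between the groups for the other 4 lists. Fibroblast markers (10 of 12) summed to 35.3 to 49.0 against 47.2 to 86.0. Ly6a, higher by 4.55, was the 1 fibroblast marker that passed. Above 0 without passing were Thy1 (1.62), Col1a1 (0.97), Mfap5 (0.38), Gsn (0.33), Dcn (0.13) and Pi16 (0.01). Below 0 without passing were Col3a1 (-0.46), Pdgfra (-0.63) and Lum (-2.60). Endothelial markers (7 of 10) summed to 13.9 to 19.6 against 15.2 to 20.8, with Esam higher by 1.57 and Egfl7 lower by 0.53. Immune markers (7 of 10) summed to 35.0 to 55.6 against 35.6 to 49.0, with adjusted p of 0.390 to 0.953 for its genes. Muscle differentiation markers (12 of 12) summed to 383 to 1018 against 503 to 1373, with Actn2 higher by 2.56. The mean log2 level of this list on replicates 1 to 4 was 3.51, 3.34, 4.51 and 4.83 (eGFP). With Hoxa9 it was 3.99, 4.05, 4.94 and 5.27, higher in each same-numbered pair. In both groups replicates 1 and 2 read lower than 3 and 4. The differentiation markers did not all rise: 9 of the 12 had differences above 0 and 3 below. Those below were Myog (-0.77), Myh3 (-0.69) and Atp2a1 (-0.05). Only Actn2 passed, and the next largest difference above 0 was that of Myh8 (1.77). Tek, Emcn and Tie1 of the endothelial list and Ptprc, Lyz2 and Tyrobp of the immune list had no kept probe. The part of these markers in the changes of the guidance genes was not tested.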

How the data were processed

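The deposited files give scanner intensity per spot. They were made by the authors using Agilent Feature Extraction, version 10.7.3.1 per the submitters' processing notes, with background subtracted on each array per the file headers, which also give mm9 as the build of probe positions. Marked and control spots were left out, repeated spots averaged, and the log2 processed signal was reduced by each array's 75th percentile. Subtraction makes the lowest signals uncertain, so folds from them are imprecise. A probe was kept if well above background on 4 or more of the 8 arrays, and a gene is its kept probe with the highest mean. The test was limma's (version 3.58.1, R 4.3.3; lmFit, then eBayes), two-sided, with p adjusted by Benjamini-Hochberg across the 27109 genes and a threshold of 0.05. On simulated data 100 of the 27109 genes were changed by 1 log2 unit and 100 by 2. The fit recovered 28% of the former and 66% of the latter, with 6 unchanged genes called. In the measured data 15.2% of genes passed, and Benjamini-Hochberg adjustment is stricter when few genes change. The simulated shares are thus no estimate of how many real changes were missed.

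The members and lists were chosen with earlier results of these data known. Values on every array are given for members that passed the test, and up to 4 genes of lowest adjusted p are named from each pathway list. Single probes of Epha5, Nrp2 and Sema6d, and the marker genes, were named after their values were seen. Names were updated through RefSeq (GRCm38.p6) for 1711 of 27656 matched probes. Samples of the same number deviated together from their groups (correlations 0.143, 0.228, 0.129 and 0.186 for numbers 1 to 4, each over the limit of 0.1), so the number, which the titles give as that of the experiment, was taken to pair samples. The main test is unpaired, and the number enters as a block in 1 alternative. Of the unlike pairs, eGFP 4 with Hoxa9 3 (0.188) and eGFP 3 with Hoxa9 4 (0.137) also exceeded it. A second deposited table had lost its decimal point in 86.1% to 87.3% of cells. With the point put back its medians were -3.36, -3.23, -3.11 and -3.08 (eGFP) and -3.24, -3.26, -3.22 and -2.95 (Hoxa9), and it held the log2 scanner values shifted by a constant per array, within 0.05, with no centring by gene. It served as an alternative. The other alternatives were quantile and median scaling, normexp (offset 50), looser and stricter filters on dim probes, averaged probes, slide or replicate number as a block, and leaving out each array.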

Additional observations from a re-analysis of the deposited data

Results flagged for a closer look

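In 102 groups of 4 arrays examined, 4 held an array far from the other 3, and chance alone flags about 1 group in 20. Epha7 read -1.96 on eGFP replicate 1 against -2.81 to -2.67 on the other eGFP arrays. Efnb3 read -1.36 on the same array against -2.12 to -2.01. Sema3f read -7.46 there against -2.49 to -1.82. Unc5b read 1.77 on eGFP replicate 2 against 2.19 to 2.27. Epha7 and Unc5b passed the test in every alternative run, including those without these arrays.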

How the results depend on the processing

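Of 21 calls 13 were kept in all 19 alternatives, and Plxna4 and Robo2 in the 18 that tested them; 2 alternatives were chosen after seeing the data (no long repeats, and probes with 1 marked spot kept). The count of guidance genes ran from 8 to 12 higher and 7 to 11 lower. With the replicate block it was 9 and 10, and the block changed no call but those of Efna1 and Neo1. Leaving out 1 array gave 8 to 10 higher and 7 to 9 lower. A median shift ended the calls of Efna1, Neo1 and Sema4d (adjusted p 0.102, 0.0903 and 0.0638), and no filter on dim probes those of Efna1, Sema4d and Slit1 (0.0662, 0.0740 and 0.0536). Requiring signal on all 8 arrays removed Plxna4, Plxnc1 and Robo2. Called genes did not change sign. Of genes that did not pass, 10 did: Epha5 (-0.024) and Sema6d (-0.007) with a median shift, Ephb3 with quantile normalization (0.155), Ephb3 (0.067), Efna2 (0.077) and Sema4b (0.005) with normexp, Ephb6 with the slide as a block (-0.067), and Sema6d with averaged probes (-0.546) or no long repeats (-1.113). Leaving out 1 array gave -0.075 to 0.100 for Epha5, -0.093 to 0.085 for Ephb3, -0.088 to 0.136 for Ephb6, -0.160 to 0.095 for Efnb3, -0.023 to 0.133 for Sema4c, -0.082 to 0.140 for Sema6d, -0.476 to 0.079 for Plxna1 and -0.258 to 0.055 for Plxnb1. The cause was not tested. Signals near background limit Robo2, Plxnc1, Plxna4 and Epha5.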
